A study of Mus musculus with 20 samples.

Results

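The 9 genes studied here make, store, take up, break down or sense serotonin, and were examined in the ileum of mice fed with or without tryptophan (Trp), the amino acid from which serotonin is made. They were chosen by name for their roles and comprise the synthesis enzymes Tph1 and Ddc, the vesicle transporters Slc18a1 and Slc18a2, the uptake transporter Slc6a4, the degrading enzymes Maoa and Maob, and the receptors Htr3a and Htr4. All 9 of these 9 genes, out of 35204 in the gene table, reached 0.5 CPM (mapped counts scaled to a common library size) in at least 1 mouse and so entered the test, which covered 16306 genes.

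RNA was sequenced from the terminal ileum of 20 C57BL/6 mice, all female and 7 weeks old at the start, in 4 groups of 5. CD mice received an amino acid control diet and TDD mice the same diet without Trp, in both cases for 3 weeks and as specific pathogen-free (SPF) animals with their microbiota. CD+ABX and TDD+ABX mice received those diets together with ampicillin, vancomycin, metronidazole, neomycin and gentamycin (ABX) in the drinking water. By the methods of the study, sucrose was added to the antibiotic water for palatability. Whether the water of the SPF mice held sucrose is not stated, so ABX may stand here for antibiotics with sucrose. The piece of ileum was opened, washed and frozen whole, so it held epithelium, lamina propria, muscle and enteric neurons together. The estimated counts summed to between 36676963 and 58662617 per mouse.

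Most of the body's serotonin is made in the gut by enterochromaffin cells, a rare enteroendocrine type of the epithelium. In these cells Tph1 hydroxylates Trp, which is the rate-limiting step, and Ddc decarboxylates the product to serotonin. The vesicular monoamine transporters load serotonin into granules, and once released it acts on receptors of nerves, muscle and epithelium until enterocytes take it up through Slc6a4 and monoamine oxidases degrade it.

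With their microbiota, TDD mice had 1.85 times less Ddc than CD mice and 1.33 times more Slc6a4, and both changes passed the test. Tph1 and Slc18a1 had higher means in TDD than in CD mice but did not pass it. Under ABX, Maoa rose 1.42 times on CD and 1.66 times on TDD, and Maob rose 1.68 times on CD and 1.91 times on TDD. A gene passed the test where the Benjamini-Hochberg adjusted p of edgeR's quasi-likelihood test was below 0.05 over all 16306 genes.

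The counts of members past the test have to be read against the share of all genes that passed it. For TDD versus CD in SPF mice, 2 of the 9 genes passed, against 14.4% of all genes tested. For TDD versus CD in ABX-treated mice, 0 of 9 passed, against 1.64% of all genes, although 2 of the 9 (Ddc and Htr4) had an unadjusted p below 0.05. DESeq2 called 1 of the 9 in that comparison, Ddc, and limma-voom called 0. For ABX versus SPF, 3 of 9 passed on CD and 2 of 9 on TDD, where 12.6% and 15.4% of all genes did. For the interaction of diet and ABX, 0 of 9 passed with edgeR, DESeq2 and limma-voom, against 0.0368% of all genes with edgeR, and 3 of the 9 (Ddc, Slc6a4 and Htr4) had an unadjusted p below 0.05. None of the 9 reached the study's additional limit of a fold change of 2 in any of the 5 comparisons, a limit that 1.83%, 0.307%, 2.25%, 1.63% and 0.0245% of all genes reached together with the test in the same order. The comparisons share groups of mice, so their counts are not independent of each other. The median log2 fold change of the 9 was 0.17, 0.10, -0.02, -0.02 and -0.17, beside medians over all genes of 0.01, -0.00, -0.00, -0.03 and -0.01.

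**Figure D1:**
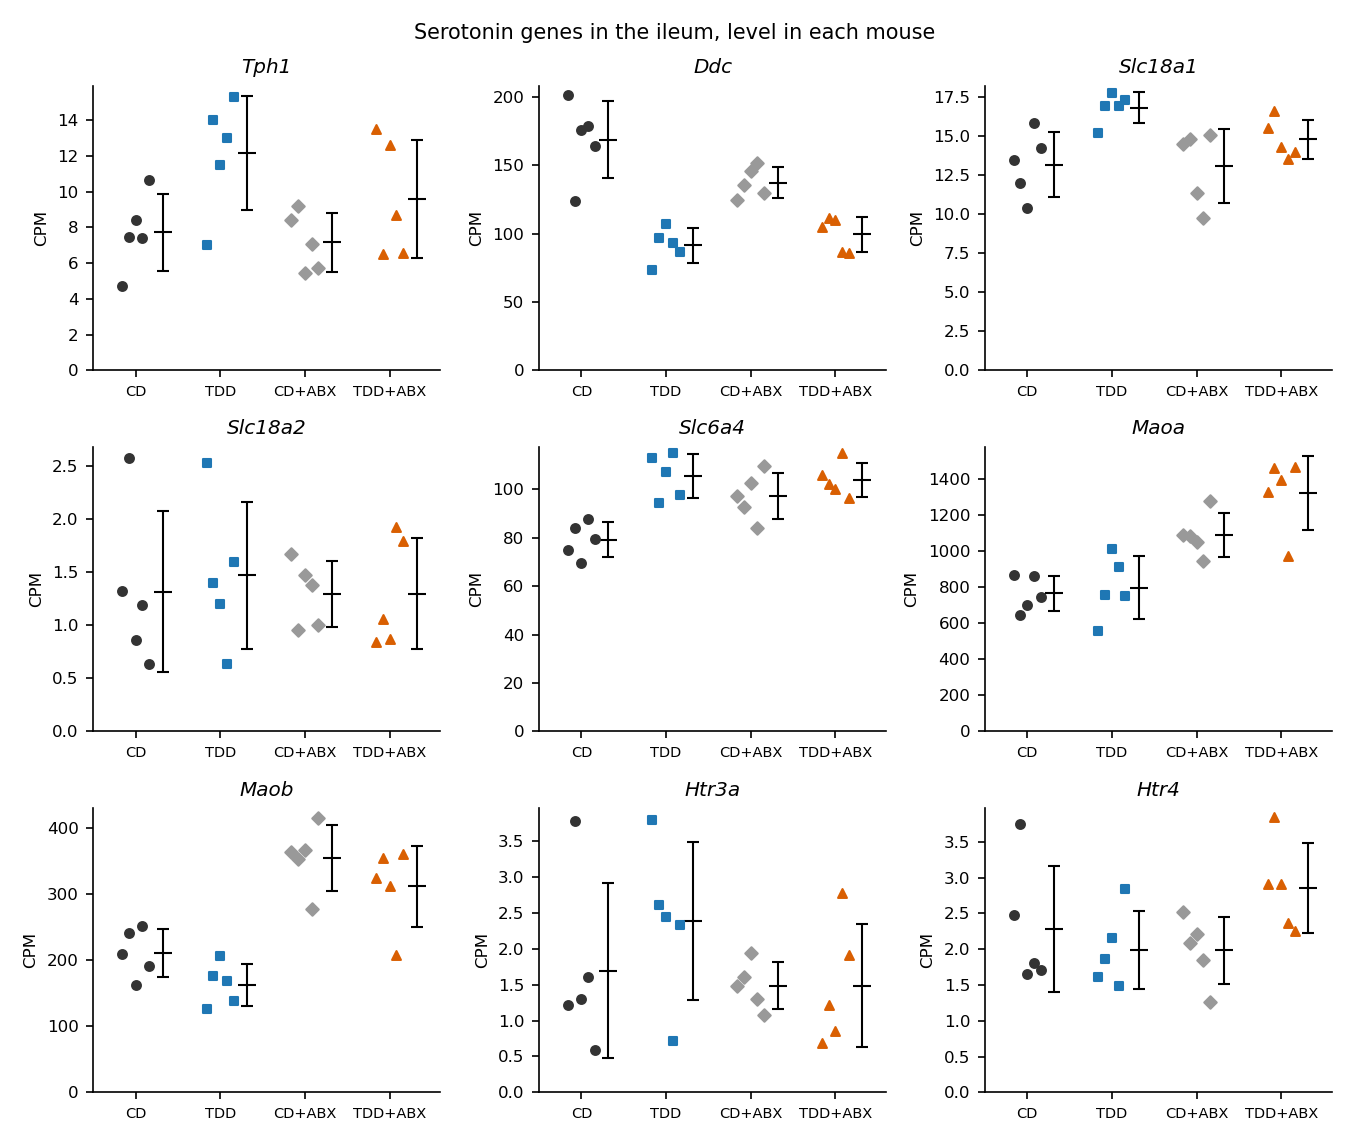
Level of each of the 9 serotonin genes in every mouse, in CPM on a linear axis from 0. Each symbol is 1 mouse and the black bar beside each group is its mean ± SD (n = 5). The 5 CD mice (124 to 202 CPM of Ddc) all sit above the 5 TDD mice (73.3 to 107 CPM), and the Maob panel shows each ABX group above the SPF group on the same diet.

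Ranked per transcript length, as TPM averaged over the 20 mice, the degrading enzymes came first and the neuronal vesicle transporter last. Maoa had 314 ± 92.4 TPM (SD, n = 20), Maob 148 ± 52.1, Ddc 92.4 ± 26.6 and Slc6a4 64.8 ± 8.85. Well below these stood Slc18a1 at 6.56 ± 1.04 TPM, Tph1 at 5.64 ± 1.94, Htr3a at 1.21 ± 0.649, Htr4 at 0.642 ± 0.209 and Slc18a2 at 0.468 ± 0.195. The lowest mouse for Slc6a4 (48.3 TPM) lay above the highest for Slc18a1 (8.50 TPM), and the lowest for Tph1 (3.07 TPM) above the highest for Htr3a (2.72 TPM). For every other pair of neighbours in this order the ranges over mice overlapped. Within single mice, Maoa was still above Maob in each of the 20, while the other overlapping pairs changed order between mice. By mean TPM, Maoa stood at percentile 97.5 of the genes tested and Slc18a2 at percentile 10.5.

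The 2 synthesis enzymes are both on reverse strands, Tph1 on chromosome 7 from 46644641 to 46672537 and Ddc on chromosome 11 from 11814101 to 11898144 (GRCm38, GENCODE M21). Each has more than 1 annotated start, and to show how those starts differ the RefSeq promoter windows at both starts are shown, as 250 bases before the start in lower case and 50 bases from the start onwards in capitals (GRCm38.p6, 5′ to 3′ on the reverse strand). The upstream Ddc window is chr11:11898095-11898394, the downstream Ddc window chr11:11890359-11890658, the upstream Tph1 window chr7:46672488-46672787 and the downstream Tph1 window chr7:46667328-46667627.
Ddc upstream: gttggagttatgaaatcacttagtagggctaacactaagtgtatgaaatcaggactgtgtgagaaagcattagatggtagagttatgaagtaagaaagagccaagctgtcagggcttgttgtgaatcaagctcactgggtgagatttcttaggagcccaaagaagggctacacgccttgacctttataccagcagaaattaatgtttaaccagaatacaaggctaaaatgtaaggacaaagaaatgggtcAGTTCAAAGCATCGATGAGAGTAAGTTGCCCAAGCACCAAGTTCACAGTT
Ddc downstream: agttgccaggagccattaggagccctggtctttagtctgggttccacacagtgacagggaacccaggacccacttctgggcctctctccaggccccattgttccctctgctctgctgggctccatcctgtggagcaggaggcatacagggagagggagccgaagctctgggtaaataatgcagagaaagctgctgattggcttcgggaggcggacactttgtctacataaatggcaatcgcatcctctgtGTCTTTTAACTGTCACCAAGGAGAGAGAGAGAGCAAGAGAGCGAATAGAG
Tph1 upstream: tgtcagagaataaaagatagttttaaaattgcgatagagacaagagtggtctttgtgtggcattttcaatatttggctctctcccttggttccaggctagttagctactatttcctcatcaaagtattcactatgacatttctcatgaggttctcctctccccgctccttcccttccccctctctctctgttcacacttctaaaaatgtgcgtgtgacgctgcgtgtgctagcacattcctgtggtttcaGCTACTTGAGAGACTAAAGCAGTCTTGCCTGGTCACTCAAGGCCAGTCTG
Tph1 downstream: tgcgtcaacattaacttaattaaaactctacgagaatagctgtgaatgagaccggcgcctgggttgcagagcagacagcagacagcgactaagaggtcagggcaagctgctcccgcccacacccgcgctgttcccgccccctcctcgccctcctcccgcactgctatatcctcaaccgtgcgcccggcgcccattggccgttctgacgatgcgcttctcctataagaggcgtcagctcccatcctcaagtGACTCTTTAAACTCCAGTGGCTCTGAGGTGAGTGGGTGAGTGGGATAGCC

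These 4 windows had a GC content of 41.3% (upstream Ddc), 54.3% (downstream Ddc), 45.0% (upstream Tph1) and 58.0% (downstream Tph1), beside a median of 52.7% over all 32851 RefSeq promoter windows of this length. The letters TATAAA, a core promoter motif, occurred on either strand in the upstream Ddc window and in none of the other 3, and in 13.6% of all windows. The letters GTTAAT, a core of the sites bound by HNF1 factors, matched the downstream Tph1 window, also only as the reverse complement ATTAAC. They matched none of the other 3, and 7.10% of all windows. A window was also found for Slc18a2, Slc6a4 and Maoa, and no window is given here for Slc18a1, Maob, Htr3a and Htr4.

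Tph1, whose enzyme limits the rate of serotonin synthesis, had 4.71, 7.44, 8.44, 7.41 and 10.7 CPM in the 5 CD mice and 7.002, 14.0, 11.5, 13.0 and 15.3 CPM in the 5 TDD mice. TDD mouse 1 lay among the CD mice and the other 4 TDD mice above all of them, so the groups overlapped. The means were 7.74 ± 2.15 CPM in CD and 12.2 ± 3.21 CPM in TDD (SD, n = 5). The log2 fold change of 0.65 (SE 0.25) did not pass the test (adjusted p = 0.0904). Without TDD mouse 1 the log2 fold change was 0.80 and the adjusted p 0.0323.

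Under ABX the values of Tph1 were 8.42, 9.21, 5.43, 7.09 and 5.71 CPM on CD and 13.5, 6.51, 12.6, 8.70 and 6.58 CPM on TDD. TDD+ABX mice 1 and 3 exceeded every CD+ABX mouse, and the other 3 lay within the CD+ABX range. The log2 fold change was 0.42 (SE 0.25, adjusted p = 0.463). ABX itself gave a log2 fold change of -0.11 (SE 0.25, adjusted p = 0.840) on CD and of -0.34 (SE 0.25, adjusted p = 0.367) on TDD, neither of which passed the test. Tph2, the enzyme that replaces Tph1 in neurons, reached at most 2 counts in any mouse.

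In whole tissue, fewer cells of a type and less RNA per cell cannot be told apart, and Tph1 comes from a rare cell. Its level was therefore set against 7 pan-enteroendocrine markers (Chga, Chgb, Neurod1, Nkx2-2, Isl1, Insm1 and Pcsk1) within each mouse, as log2 CPM of Tph1 less the mean log2 CPM of the markers, with 0.1 CPM added. This relative level was -0.10 ± 0.31 in CD and 0.37 ± 0.27 in TDD (SD, n = 5), a difference of 0.47 with a two-sided exact permutation p of 0.0397 and an adjusted p of 0.127 over the 8 ratio tests made. The difference was 0.18 between TDD+ABX and CD+ABX (exact permutation p = 0.254, adjusted p = 0.402), -0.08 between CD+ABX and CD (exact permutation p = 0.627, adjusted p = 0.627) and -0.37 between TDD+ABX and TDD (exact permutation p = 0.0794, adjusted p = 0.159). The gene most like Tph1 over the 20 mice was Chgb, a granule protein of endocrine cells, with a Pearson r of 0.86 on log2 CPM (0.83 after removing group means). Next came Retnlg (r = 0.85), Ccr3 (r = 0.85), Bclaf1 (r = 0.83) and Galnt5 (r = 0.83), of which Retnlg and Ccr3 averaged only 0.5679 and 0.234 CPM.

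Markers of the cells that make serotonin are to be read against the 14.4% of all genes that passed for diet in SPF mice. Of 8 enterochromaffin markers, 1 rose with TDD in SPF mice, the adhesion receptor gene Adgrg4, from 2.40 ± 0.289 to 3.77 ± 0.986 CPM (log2 fold change 0.65, SE 0.20, adjusted p = 0.0382). Of 10 pan-enteroendocrine markers, 1 rose, the transcription factor Neurod1, from 3.46 ± 0.375 to 4.68 ± 0.5685 CPM (log2 fold change 0.44, SE 0.11, adjusted p = 0.0154). The enterochromaffin markers summed to between 14.7 and 24.5 CPM in CD, 18.5 and 23.7 in TDD, 14.3 and 22.4 in CD+ABX and 18.4 and 21.9 in TDD+ABX mice. The largest parts of this sum were Tac1 (group means of 5.66 to 7.37 CPM) and Piezo2 (5.80 to 6.45 CPM). CD mouse 2, with the highest sum, also had the most RNA of enteric neuron markers (107 CPM). The part of nerve RNA in this sum was not tested. The pan-enteroendocrine markers summed to between 147 and 237 CPM in CD, 155 and 272 in TDD, 151 and 229 in CD+ABX and 169 and 256 in TDD+ABX mice. No marker of either list passed the test in the other 4 comparisons, and the part of these markers in the Tph1 values was tested only through the ratio above. Of 9 other gut hormone genes, Gcg fell with TDD in SPF mice (log2 fold change -0.56, SE 0.18, adjusted p = 0.0410), and Cck, Gip, Nts and Sst fell with ABX on CD by 0.79, 0.61, 0.83 and 0.22 on the log2 scale.

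Mast cells and platelets also carry serotonin in mice. Of 10 mast cell markers, 6 (Cpa3, Cma1, Tpsb2, Tpsab1, Fcer1a and Ms4a2) stayed under the filter with at most 20 counts in any mouse. The mast cell protease genes Mcpt1 and Mcpt2 were detected, with up to 465 and 174 counts in a mouse and up to 9.61 and 3.596 CPM among the TDD+ABX mice. None of the 4 tested passed with edgeR or limma-voom, while DESeq2 called 1 for ABX on TDD, where 2 had an unadjusted p below 0.05. The sum of the 10 ran from 23.4 to 37.7 CPM in CD, 26.2 to 35.0 in TDD, 22.7 to 34.6 in CD+ABX and 21.6 to 34.5 in TDD+ABX mice, most of it from Kit, which interstitial cells of Cajal also express. Of 5 platelet markers, Ppbp and Gp9 reached at most 2 and 4 counts. Group means ran from 25.4 to 45.8 CPM for Gp1bb, 1.99 to 2.90 for Itga2b and 0.845 to 1.67 for Pf4. Gp1bb rose with TDD in SPF mice (log2 fold change 0.64, SE 0.19, adjusted p = 0.0323) and with ABX on CD (0.85, SE 0.19, adjusted p = 0.00733), and Pf4 and Itga2b fell with ABX on CD by 0.81 and 0.54 on the log2 scale.

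Ddc, which makes serotonin from 5-hydroxytryptophan and also dopamine from DOPA, had the smallest adjusted p of the 9 genes for diet in SPF mice. It had 202, 124, 176, 179 and 164 CPM in the CD mice and 73.3, 96.8, 107, 92.9 and 86.8 CPM in the TDD mice. The lowest CD mouse lay above the highest TDD mouse, so the groups did not overlap. The means were 169 ± 28.4 and 91.4 ± 12.5 CPM (SD, n = 5), and the log2 fold change of -0.89 (SE 0.12) passed the test with an adjusted p of 9.25e-05. It passed in each of the 20 fits that left out 1 mouse, with adjusted p of 0.000445 or less.

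In ABX-treated mice Ddc had 125, 135, 146, 152 and 129 CPM on CD and 105, 112, 109.7, 86.3 and 85.6 CPM on TDD. These groups did not overlap either, with means of 137 ± 11.3 and 99.6 ± 12.7 CPM (SD, n = 5). The log2 fold change of -0.46 (SE 0.12) had an adjusted p of 0.0501 and thus just missed the threshold. It passed with DESeq2 (adjusted p = 0.0101), with upper-quartile scaling (0.0362), with only these 2 groups in the fit (0.0356) and, in an alternative added after the data were seen, with edgeR without robust estimation (0.0499). It also passed when CD mouse 1, CD mouse 2 or TDD mouse 1 was left out (adjusted p of 0.0477, 0.0205 and 0.0359). ABX gave a log2 fold change of -0.30 on CD (SE 0.12, adjusted p = 0.104, or 0.0180 without CD mouse 2, the lowest CD mouse) and of 0.12 on TDD (SE 0.12, adjusted p = 0.501). The interaction, the diet effect under ABX less that in SPF mice, was 0.42 on the log2 scale (SE 0.17, unadjusted p = 0.0198, adjusted p = 0.424), so the difference between the diet effects did not pass the test.

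By transcript, most of Ddc came from the upstream start printed above. Ddc transcripts beginning there held 86.3% of the mean TPM of the gene, nearly all of it in the 15-exon Ddc-210, and those beginning at the downstream start held 7.30%. From the upstream start the CD mice had 134, 84.1, 114, 111 and 105 TPM and the TDD mice 42.6, 58.5, 68.2, 55.7 and 54.7 TPM. The groups did not overlap at this start, with means of 109.8 ± 18.1 TPM in CD, 55.9 ± 9.16 in TDD, 88.3 ± 9.02 in CD+ABX and 65.2 ± 6.79 in TDD+ABX mice. From the downstream start the means were 7.03 ± 3.22, 4.84 ± 1.93, 7.93 ± 2.53 and 7.20 ± 2.05 TPM in the same order, and CD and TDD mice overlapped. Transcript values are kallisto's split of reads among similar transcripts and were not tested.

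Tph1 transcripts were spread more evenly over its starts. Those from the downstream start held 57.5% of the mean TPM and Tph1-201, from the upstream start, 22.9%. Means at the downstream start were 2.83 ± 0.950 TPM in CD, 4.03 ± 1.37 in TDD, 2.46 ± 0.729 in CD+ABX and 3.66 ± 1.16 in TDD+ABX mice (SD, n = 5). At the upstream start they were 1.08 ± 0.278, 1.70 ± 0.365, 1.04 ± 0.278 and 1.33 ± 0.489 TPM. Both starts thus had their higher means in TDD-fed mice, with overlapping groups and no test.

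**Figure D2:**
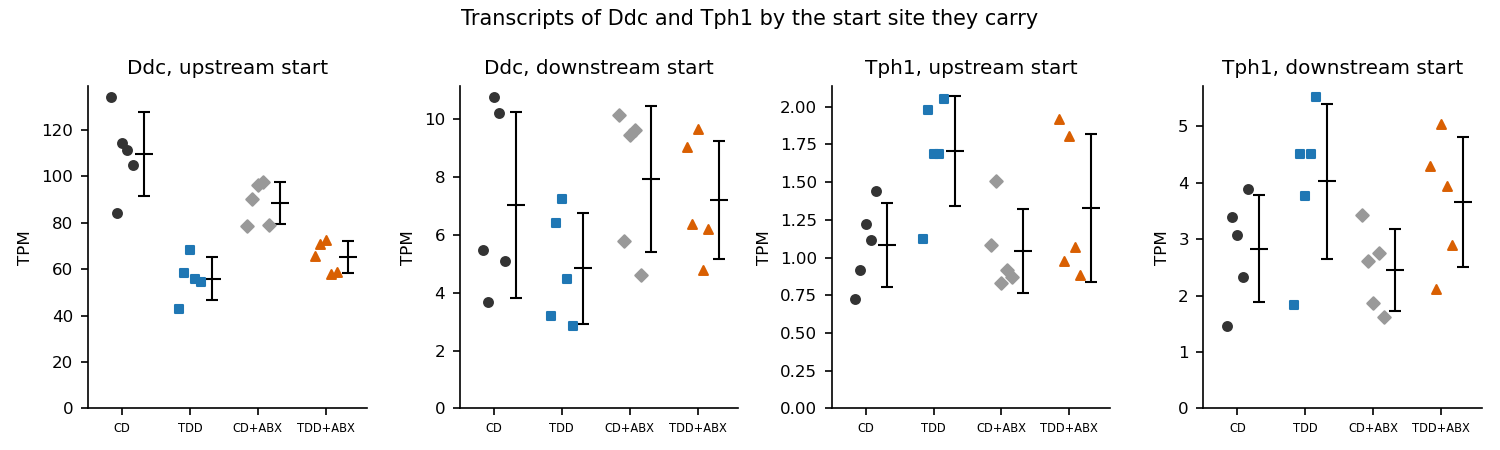
TPM of transcripts that begin at the upstream and downstream starts of Ddc and Tph1, 1 symbol a mouse, with the mean ± SD of each group (n = 5) as a black bar on linear axes from 0. The drop of Ddc in TDD mice shows at the upstream start (109.8 to 55.9 TPM on average), while the downstream start stays below 11 TPM in every mouse.

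The genes with a pattern most like Ddc over the 20 mice were Dab1 (Pearson r = 0.93), Aagab (r = 0.93) and Stk38 (r = 0.92), and after removing group means their r was 0.79, 0.61 and 0.57. Among the other members, Slc6a4 ran opposite to Ddc (r = -0.77), but less so after removing group means (r = -0.34). Between Ddc and Tph1 the r was -0.43, and 0.10 after removing group means. Ddc did not follow the endocrine markers. Its r was -0.64 and -0.41 with the enterochromaffin markers and -0.33 and 0.05 with the pan-enteroendocrine markers. With the enterocyte markers these values were -0.0033 and 0.31. The cells from which the Ddc RNA came were not tested.

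Storage was represented by 2 transporters with unlike patterns. Slc18a1 (VMAT1, chromosome 8 from 69037711 to 69089235, reverse strand), the vesicular transporter of endocrine cells, had 13.5, 11.98, 10.4, 15.8 and 14.3 CPM in CD mice and 15.2, 16.9, 17.8, 16.9 and 17.3 CPM in TDD mice. TDD mouse 1 was below the highest CD mouse and the other 4 TDD mice were above all CD mice. The log2 fold change was 0.35 (SE 0.12) with an adjusted p of 0.0513, just short of the threshold. It passed with upper-quartile scaling (adjusted p = 0.0396), DESeq2 (0.0402) and limma-voom (0.0417), and without CD mouse 4, TDD mouse 1, CD+ABX mouse 4 or CD+ABX mouse 5 (0.0263, 0.0444, 0.0340 and 0.0463). Mean Slc18a1 was 13.1 ± 2.39 CPM in CD+ABX and 14.8 ± 1.26 CPM in TDD+ABX mice (log2 fold change 0.18, SE 0.12, adjusted p = 0.518). ABX changed neither diet group past the test (-0.01 on CD and -0.18 on TDD, each with SE 0.12). Slc18a1 was most like Sult1a1 (r = 0.81), Kat6b (r = 0.79) and Bmp2k (r = 0.78).

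Slc18a2 (VMAT2, chromosome 19 from 59260896 to 59296012, forward strand), the form used by monoamine neurons and mast cells, was the lowest of the 9 genes, with 23 to 111 estimated counts per mouse. It had 1.32, 2.58, 0.858, 1.19 and 0.632 CPM in CD mice and 2.53, 1.40, 1.20, 0.633 and 1.60 CPM in TDD mice, so the spread within each group exceeded the difference between the means. The means were 1.32 ± 0.758, 1.47 ± 0.694, 1.30 ± 0.310 and 1.30 ± 0.522 CPM in CD, TDD, CD+ABX and TDD+ABX mice (SD, n = 5). No comparison passed the test (adjusted p from 0.769 to 1), with SE near 0.37 on the log2 scale in each pairwise comparison.

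Slc18a2 differed between single mice in step with the neuronal RNA of the piece. Over the 20 mice its r with the summed level of 12 enteric neuron markers was 0.89, and 0.93 after removing group means, and with 6 smooth muscle markers it was 0.83 and 0.86. The genes most like it were Lrp11, Scn3b and Minar2 (r = 0.95, 0.95 and 0.94). The neuron markers summed to between 31.3 and 107 CPM in single mice and the smooth muscle markers to between 472 and 2508 CPM, and CD mouse 2 was highest for both sums and for Slc18a2. All 20 points come from whole-tissue libraries with unequal amounts of muscle and nerve. Slc18a1, by contrast, had an r of -0.23 with the neuron markers. Nor did it closely follow the endocrine markers. Its r with the pan-enteroendocrine markers was 0.38, and 0.14 after removing group means. With the enterochromaffin markers these values were 0.25 and -0.16.

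**Figure D3:**
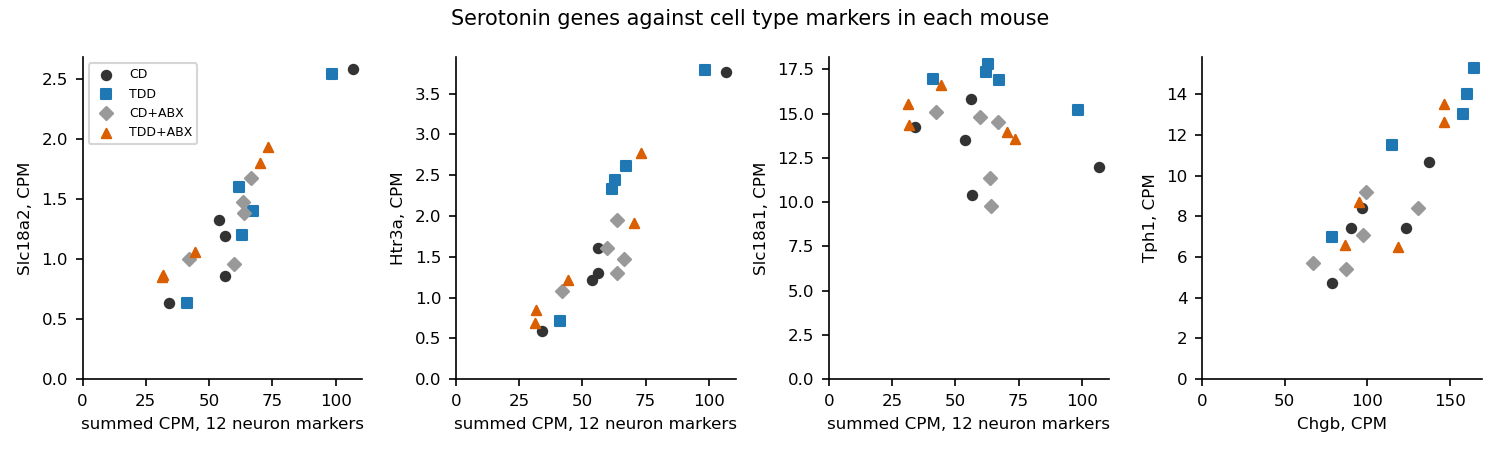
Levels in each of the 20 mice, in CPM on linear axes, with symbols by group: Slc18a2, Htr3a and Slc18a1 against the summed CPM of 12 enteric neuron markers, and Tph1 against Chgb. Slc18a2 and Htr3a rise along the neuron markers (r = 0.89 and 0.92 on log2 values), Slc18a1 does not (r = -0.23), and Tph1 rises along Chgb (r = 0.86).

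Slc6a4 (SERT, chromosome 11 from 76998603 to 77032340, forward strand), through which enterocytes clear serotonin, had 75.1, 83.9, 69.5, 87.8 and 79.5 CPM in CD mice and 113, 94.3, 107, 115 and 97.7 CPM in TDD mice. Every TDD mouse was above every CD mouse. The means of 79.2 ± 7.18 and 106 ± 9.21 CPM (SD, n = 5) gave a log2 fold change of 0.41 (SE 0.08, adjusted p = 0.00176), which passed in all 20 fits without 1 mouse.

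With ABX, Slc6a4 was raised already on CD, with 97.1, 92.5, 103, 84.2 and 109 CPM. CD+ABX mouse 4 lay among the CD mice and the other 4 above them. The log2 fold change of ABX on CD was 0.30 (SE 0.08, adjusted p = 0.0181). Without CD mouse 3 it was 0.25 (adjusted p = 0.0558), and without CD+ABX mouse 5 it was 0.25 (adjusted p = 0.0534). TDD+ABX mice had 106, 102, 100.2, 115 and 96.4 CPM, which overlapped both the CD+ABX and the TDD mice. The diet effect under ABX was 0.10 (SE 0.08, adjusted p = 0.609) and the ABX effect on TDD was -0.02 (SE 0.08, adjusted p = 0.881). The interaction was -0.32 (SE 0.11, unadjusted p = 0.00997, adjusted p = 0.342), so it did not pass the test, and it was -0.15 on log2(TPM + 1).

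Set against the enterocyte markers Vil1, Epcam and Fabp2 within each mouse, the log2 level of Slc6a4 was -5.08 ± 0.316 in CD, -4.65 ± 0.0455 in TDD, -5.21 ± 0.240 in CD+ABX and -5.08 ± 0.140 in TDD+ABX mice. The difference between TDD and CD was 0.43 (exact permutation p = 0.0476, adjusted p = 0.127) and that between TDD+ABX and CD+ABX 0.13 (exact permutation p = 0.302, adjusted p = 0.402). The difference between CD+ABX and CD was -0.13 (exact permutation p = 0.579, adjusted p = 0.627), opposite in sign to that of Slc6a4 itself, and that between TDD+ABX and TDD was -0.43 (exact permutation p = 0.00794, the smallest that 5 against 5 mice can give, adjusted p = 0.0635). Among the 3 markers, Fabp2 itself rose with ABX by 1.20 on CD (SE 0.18) and 1.22 on TDD (SE 0.18) on the log2 scale, and against Vil1 alone the difference was 0.21 between CD+ABX and CD and -0.061 between TDD+ABX and TDD (exact permutation tests, adjusted p = 0.317 and 0.325).

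By transcript, full-length Slc6a4-201 with 14 exons held 64.8% of the mean TPM of the gene and the short 3-exon Slc6a4-203 held 32.3%, a share that TPM, being per length, raises for a short transcript. Slc6a4-201 had means of 34.7 ± 3.34 TPM in CD, 44.1 ± 3.56 in TDD, 42.9 ± 3.69 in CD+ABX and 46.3 ± 3.48 in TDD+ABX mice. Slc6a4-203 had 16.9 ± 1.23, 21.7 ± 3.70, 19.8 ± 2.30 and 25.5 ± 1.67 TPM in the same order. Genes most like Slc6a4 were Tbc1d10a (r = 0.91), Usp2 (r = 0.88) and B4galnt4 (r = 0.88).

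Maoa and Maob encode the outer-membrane mitochondrial enzymes that oxidise serotonin and other monoamines, of which MAO-A prefers serotonin. They lie end to end on the X chromosome without overlap, Maoa on the forward strand from 16619698 to 16687818 and Maob on the reverse strand from 16709282 to 16817366. Their levels varied together over the 20 mice (r = 0.82), within 1 shared set of libraries.

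Maoa had 867, 648, 704, 862 and 749 CPM in CD mice and 1088, 1087, 1050.2, 946 and 1278 CPM in CD+ABX mice. These groups did not overlap, and the means of 766 ± 96.7 and 1089.8 ± 120.2 CPM (SD, n = 5) gave a log2 fold change of 0.51 (SE 0.14, adjusted p = 0.0247). The log2 fold change stayed between 0.45 and 0.56 when 1 mouse was left out, but the adjusted p was 0.0614 without CD mouse 3, 0.0525 without CD mouse 5 and 0.0655 without CD+ABX mouse 5. On TDD, 557, 757, 1012, 914 and 752 CPM without ABX stood beside 1327, 1464, 1395, 973 and 1466 CPM with ABX. Only TDD+ABX mouse 4 fell within the TDD range, and the log2 fold change was 0.73 (SE 0.14, adjusted p = 0.00320). Diet did not change Maoa past the test, with a log2 fold change of 0.06 (SE 0.14, adjusted p = 0.827) in SPF and 0.28 (SE 0.14, adjusted p = 0.371) in ABX-treated mice.

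Maob had 209, 241, 162, 251.5 and 191 CPM in CD mice and 364, 353, 366, 277 and 415 CPM in CD+ABX mice. On TDD it had 126, 175, 206, 169 and 138 CPM in SPF mice and 323, 354, 311, 208 and 359.9 CPM with ABX. On neither diet did the groups overlap, although TDD+ABX mouse 4 lay just above the highest TDD mouse. ABX gave a log2 fold change of 0.75 on CD (SE 0.16, adjusted p = 0.00492) and 0.93 on TDD (SE 0.16, adjusted p = 0.00140), and both passed in all 20 fits without 1 mouse. With diet, Maob gave -0.37 in SPF mice (SE 0.16, unadjusted p = 0.0297, adjusted p = 0.127) and -0.19 in ABX-treated mice (SE 0.16, adjusted p = 0.624), which did not pass. The interaction was 0.22 for Maoa (SE 0.20, adjusted p = 0.822) and 0.18 for Maob (SE 0.22, adjusted p = 0.871).

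Genes most like Maoa were Slc5a4b, Aqp3 and Gltpd2 (r = 0.92 each), and those most like Maob were Srd5a1 (r = 0.93), Gstp1 (r = 0.92) and Rap2a (r = 0.91). The ABX groups also differed from SPF mice in markers of the ileal epithelium. Of 7 enterocyte markers 3 rose with ABX on both diets: Fabp2, the ileal bile acid-binding protein gene Fabp6 and the ileal bile acid transporter gene Slc10a2. Fabp6 ran from 0.319 to 2.42 CPM in CD, 0.238 to 3.91 in TDD, 2.65 to 144 in CD+ABX and 3.34 to 40.8 in TDD+ABX mice, and Slc10a2 from 1.38 to 3.89, 3.69 to 8.80, 16.6 to 86.1 and 13.2 to 58.3 CPM. Both defining markers of the ileum were thus low in the SPF groups of tissue labelled as ileum. Mean Fabp6 was 1.17 CPM in CD and 1.40 CPM in TDD mice, and mean Slc10a2 was 2.36 and 5.89 CPM. Vil1 averaged 3679, 3619, 3885 and 3725 CPM in CD, TDD, CD+ABX and TDD+ABX mice. The 7 markers together summed to between 10466 and 21274 CPM in CD, 15891 and 19720 in TDD, 16434 and 27356 in CD+ABX and 18985 and 22664 in TDD+ABX mice. The T cell genes Cd3e and Cd4 fell with ABX on both diets and Cd8a on CD, among 4 tested. The summed level of 5 B cell markers ran from 3.54 to 85.8 CPM in CD (median 4.93), 3.46 to 130 in TDD (median 89.0), 2.38 to 6.86 in CD+ABX and 2.73 to 91.8 in TDD+ABX mice. With edgeR 0 of the 5 passed in any comparison, although 5 had an unadjusted p below 0.05 for ABX on CD (median log2 fold change -3.33), where DESeq2 called 3, and 4 for diet under ABX. Of 6 smooth muscle, 3 enteric glia and 3 listed colon markers tested, 0 passed in any comparison with edgeR, DESeq2 or limma-voom. An unadjusted edgeR p was below 0.05 for at most 2 of the colon list and for 0 of the others. The colon list was Car1, Saa3 and Ang4, with Aqp8 under the filter. Ang4, which is not particular to the colon, averaged 322 to 386 CPM over the groups. The rest of the list was low, with group means of 1.66 to 2.46 CPM for Saa3 and at most 0.134 CPM for Aqp8. Car1 was 0 in all CD mice and reached 2.40 CPM among the CD+ABX mice. The position of the piece was not tested. The part of these marker differences in the Maoa, Maob and Slc6a4 results was not tested either.

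**Figure D4:**
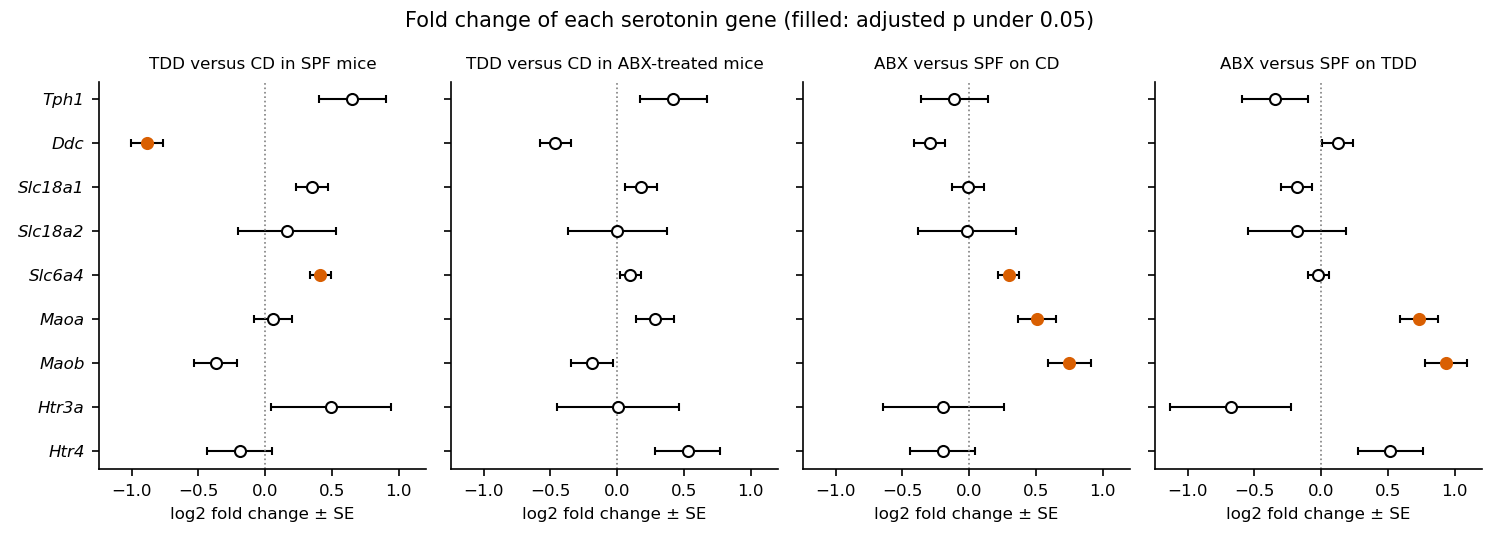
Log2 fold change ± SE of each serotonin gene in the 4 pairwise comparisons, all from 1 edgeR fit to the 20 mice. Filled points passed the test: Ddc (-0.89) and Slc6a4 (0.41) for diet in SPF mice, Slc6a4 (0.30), Maoa (0.51) and Maob (0.75) for ABX on CD, and Maoa (0.73) and Maob (0.93) for ABX on TDD.

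The receptor Htr3a (chromosome 9 from 48899213 to 48911099, reverse strand), a subunit of the serotonin-gated ion channel of enteric and sensory neurons, had 1.21, 3.77, 1.30, 1.61 and 0.589 CPM in CD mice and 3.79, 2.61, 2.44, 0.716 and 2.33 CPM in TDD mice. CD+ABX mice had 1.48, 1.61, 1.95, 1.30 and 1.07 CPM and TDD+ABX mice 0.682, 1.22, 0.848, 2.77 and 1.92 CPM. All groups overlapped, and no comparison passed the test (pairwise log2 fold changes from -0.68 to 0.49, each with SE near 0.45, adjusted p from 0.325 to 0.998). Single mice moved these values, and the diet log2 fold change in SPF mice of 0.49 was 1.01 without CD mouse 2, 0.26 without CD mouse 5 and 0.27 without TDD mouse 1, while that of ABX on TDD was -0.45 without TDD mouse 1 and -1.02 without TDD+ABX mouse 4. Like Slc18a2, Htr3a followed the neuron markers, with r of 0.92 over the 20 mice and 0.94 after removing group means. With the smooth muscle markers its r was 0.81 and 0.90, and with Slc18a2 it was 0.88 over the 20 mice. The genes most like Htr3a were Penk, the proenkephalin gene of enteric neurons (r = 0.96), Olfm1 (r = 0.95) and Reck (r = 0.95).

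Of the 12 neuron markers, Vip fell with ABX on CD (log2 fold change -0.83, SE 0.24, adjusted p = 0.0307) and Ret fell with ABX on TDD (-0.51, SE 0.16, adjusted p = 0.0434), and the others did not pass in any comparison. The sum of the 12 ran from 34.2 to 107 CPM in CD, 41.1 to 98.5 in TDD, 42.1 to 66.6 in CD+ABX and 31.3 to 73.3 in TDD+ABX mice.

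Htr4, on chromosome 18, encodes a G protein-coupled receptor that promotes gut motility. It had 2.48, 3.75, 1.66, 1.81 and 1.71 CPM in CD, 1.61, 1.86, 2.15, 1.49 and 2.84 CPM in TDD, 2.51, 2.09, 2.21, 1.85 and 1.26 CPM in CD+ABX and 2.91, 3.84, 2.92, 2.37 and 2.25 CPM in TDD+ABX mice. The TDD+ABX mice had the highest mean, 2.86 ± 0.630 CPM (SD, n = 5), but overlapped each of the other groups. On the log2 scale its fold change was 0.53 for diet under ABX (SE 0.24, unadjusted p = 0.0414, adjusted p = 0.314), 0.52 for ABX on TDD (SE 0.24, unadjusted p = 0.0451, adjusted p = 0.154) and 0.72 for the interaction (SE 0.34, unadjusted p = 0.0498, adjusted p = 0.563), none of which passed. Unlike Htr3a, Htr4 had an r of only 0.06 with the neuron markers, and 0.30 after removing group means. With the smooth muscle markers these values were 0.16 and 0.34, with the enterochromaffin markers 0.50 and 0.62, and with the enterocyte markers -0.40 and -0.73. The genes most like Htr4 were Cnn3 (r = 0.84), Xrcc2 (r = 0.83) and Ddx56 (r = 0.83).

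Other genes of the pathway were read from lists by role. Tryptophan hydroxylase needs tetrahydrobiopterin (BH4), and of 6 genes tested that make, recycle or control this cofactor, 0 passed for diet in SPF mice (2 with an unadjusted p below 0.05) and 0 in ABX-treated mice (0 below 0.05). With ABX, Pcbd1 rose on both diets, by 0.21 on CD and 0.24 on TDD on the log2 scale (each SE 0.07), and Pts fell by 0.15 on TDD (SE 0.04, adjusted p = 0.0264). With upper-quartile scaling and with limma-voom, 0 of the 6 passed for ABX on CD.

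Of 5 other monoamine transporters listed, Slc22a2 and Slc6a2 stayed under the filter. Of the 3 tested, 2 passed with TDD in SPF mice and 0 in the remaining comparisons. The dopamine transporter gene Slc6a3 had 0.0842 to 0.878 CPM in CD and 1.21 to 1.90 CPM in TDD mice, groups that did not overlap, with a log2 fold change of 2.16 (SE 0.47, adjusted p = 0.00477). Under ABX its mean was 0.196 ± 0.1599 CPM with Trp in the diet and 0.700 ± 0.262 CPM without. That log2 fold change of 1.85 (SE 0.50, adjusted p = 0.0687) did not pass the test. Slc22a3, a low-affinity organic cation transporter that carries monoamines, fell from 4.86 ± 1.16 to 2.62 ± 0.654 CPM (log2 fold change -0.89, SE 0.19, adjusted p = 0.00465).

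Of 8 enzymes that act beside or after monoamine oxidase, Sult1a1, a phenol sulfotransferase, rose with TDD in SPF mice from 5.78 ± 1.12 to 9.24 ± 0.976 CPM (log2 fold change 0.68, SE 0.15, adjusted p = 0.00444). Ugt1a6a, of a glucuronosyltransferase family that conjugates serotonin, rose with TDD in ABX-treated mice (0.45, SE 0.10, adjusted p = 0.0293). Ugt1a genes share their last exons, so the split of its counts from those of its neighbours is uncertain. The aldehyde dehydrogenase genes Aldh1a1 and Aldh1b1 rose with ABX on both diets, Aldh1a1 by 0.88 on CD (SE 0.20, adjusted p = 0.00845) and 1.46 on TDD (SE 0.21, adjusted p = 0.000453) on the log2 scale, and Akr1b3 fell with ABX on CD by 0.20 (SE 0.06, adjusted p = 0.0361).

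Of 6 genes tested for epithelial uptake of Trp and other neutral amino acids, Slc6a19, which encodes the brush-border transporter of neutral amino acids, rose with TDD in SPF mice from 444 ± 134 to 738 ± 102 CPM (log2 fold change 0.73, SE 0.20, adjusted p = 0.0204). With ABX it rose by 1.29 on CD (SE 0.21, adjusted p = 0.000754) and 0.64 on TDD (SE 0.20, adjusted p = 0.0389) on the log2 scale. Slc7a5, which with Slc3a2 forms a large neutral amino acid exchanger, was highest in TDD+ABX mice at 18.8 ± 8.71 CPM, and rose with TDD under ABX (1.38, SE 0.27, adjusted p = 0.0152) and with ABX on TDD (1.29, SE 0.27, adjusted p = 0.00535). Slc3a2 rose with ABX on CD (0.41, SE 0.10, adjusted p = 0.0142).

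Of 12 other serotonin receptors, 4 (Htr1b, Htr2b, Htr3b and Htr7) entered the test and 0 passed in any comparison, with 1 unadjusted p below 0.05 for ABX on CD and 0 in the others. The 4 genes of melatonin synthesis and sensing had at most 10 counts in any mouse and were not tested.

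**Figure D5:**
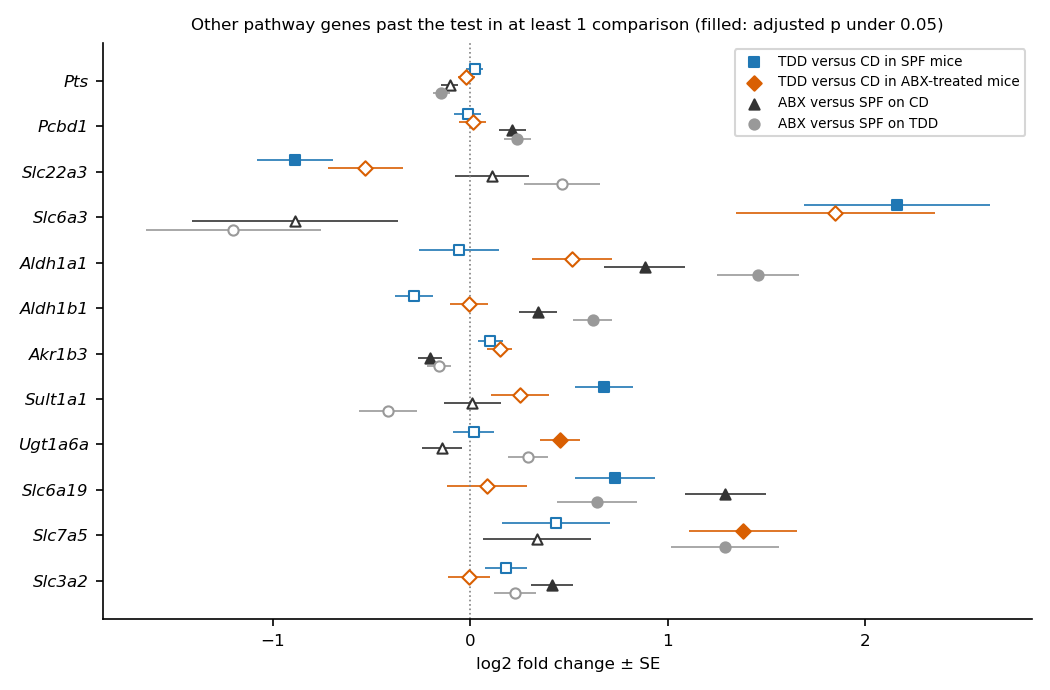
Log2 fold change ± SE of the 12 other pathway genes that passed the test in at least 1 pairwise comparison, by comparison (colour and shape). Filled symbols passed. Slc6a3 (2.16) and Slc22a3 (-0.89) mark the ends of the range for diet in SPF mice, and Aldh1a1 (1.46) is the largest filled value for ABX on TDD.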

How the data were processed

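The authors extracted RNA from whole frozen ileum, enriched poly-A RNA and quantified reads with kallisto 0.44.0 against the GRCm38 mouse transcriptome. The deposited gene table holds estimated counts, already whole numbers, and the deposited transcript files hold estimated counts and TPM. The step that summed transcripts to genes is not given in the sources used here. From these, a gene was kept where 1 or more of the 20 mice had 0.5 CPM or above, and tested with edgeR 4.0.16 (TMM scaling, quasi-likelihood test with robust estimation, 4 group means, Benjamini-Hochberg adjustment over 16306 genes). CPM are TMM-scaled. Gene TPM were summed over transcripts. Robust estimation was settled on after the files were seen. The fit was tested on simulated data. Ratios used exact permutation tests. DESeq2 1.42.0, limma 3.58.1, other scalings and filters, a replicate block, TPM and leaving out each mouse were alternatives. Named genes were the 9 members, every listed gene past the test, and by Pearson r of log2(CPM + 0.5) the 5 genes most like Tph1 and the 3 most like each other member. A further 2 planned genes were taken out of the lists and of all list counts, and are not reported here. Members, lists and tests were chosen with earlier results of these data known. The labels do not say whether mice shared cages, so p-values measure the spread between these mice. Same-numbered mice of different groups did not deviate together (r from -0.355 to 0.248), so numbers were not taken as pairs. Depth ranged from 36676963 to 58662617 counts, and the lowest member counts in a mouse were 23 (Slc18a2) and 26 (Htr3a).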

Additional observations from a re-analysis of the deposited data

Results flagged for a closer look

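In 44 sets of 5 mice (9 genes and 2 ratios in 4 groups) the mouse farthest from the rest was checked with Dixon's test, by which chance marks about 1 in 20 sets, and 2 stood apart. Maoa in TDD+ABX mouse 4 was 973.1 CPM, below the other 4 mice of its group (1327 to 1466 CPM). The same mouse was also the lowest of its group for Maob. Slc6a4 relative to enterocyte markers in CD mouse 2 was -4.52 on the log2 scale, above the other 4 CD mice (-5.26 to -5.18). That mouse also had the lowest summed enterocyte markers (10466 CPM) and the highest summed smooth muscle markers (2508 CPM) of the 20. Their part in these values was not tested.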

How the results depend on the processing

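Of the 45 gene-level results, those that changed sides of the threshold are given beside the results above, apart from Maoa for ABX on CD with a replicate block, which gave an adjusted p of 0.0525. With the replicate block, numbers of members past the test were 2, 0, 2, 2 and 0 in the 5 comparisons. By all genes, 4, 1, 2 and 2 of 10 mice correlated best with their own number in the 4 pairwise comparisons. For TDD versus CD in ABX-treated mice, the count of members past the test was 1 (Ddc) in place of 0 with upper-quartile scaling, DESeq2, only the groups compared and, added after the data were seen, edgeR without robust estimation. A required fold change of 2 gave 0 for every comparison. Leaving out 1 mouse, the count ran from 2 to 4 (TDD versus CD in SPF mice), 0 to 1 (in ABX-treated mice) and 1 to 4 (ABX versus SPF on CD).

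Directions turned only where the fold change was small and far from the threshold. For ABX on CD, Slc18a1 was 0.0050 with both RLE scaling and DESeq2, Slc18a2 was 0.14 (limma-voom), 0.039 (replicate block), 0.0044 (log2(TPM + 1)) and 0.068 (log2(TPM + 0.1)), and Htr3a was 0.044 (limma-voom) and 0.0058 (log2(TPM + 0.1)). For TDD versus CD in ABX-treated mice, Slc18a2 was -0.063 (limma-voom), -0.00159 (0.5 CPM in at least 5 mice) and -0.00292 (only the groups compared), and Htr3a was -0.15, -0.013 and -0.0875 (limma-voom, log2(TPM + 1) and log2(TPM + 0.1)). With log2(TPM + 1) and log2(TPM + 0.1), Slc6a4 for ABX on TDD was 0.12 and 0.12, and Maoa for diet in SPF mice was -0.023 with each. Without 1 mouse at a time, the ranges that crossed 0 were -0.25 to 0.034 (Tph1), -0.084 to 0.088 (Slc18a1), -0.19 to 0.38 (Slc18a2), -0.41 to 0.34 (Htr3a) and -0.30 to 0.057 (Htr4) for ABX on CD, -0.37 to 0.095 (Slc18a2) and -0.059 to 0.019 (Slc6a4) for ABX on TDD, -0.11 to 0.56 (Slc18a2), -0.053 to 0.17 (Maoa) and -0.36 to 0.055 (Htr4) for diet in SPF mice, -0.19 to 0.12 (Slc18a2) and -0.35 to 0.18 (Htr3a) for diet under ABX, and -0.55 to 0.11 (Slc18a2) for the interaction.

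For the ratios, Slc6a4 against Vil1 alone was 0.21 for ABX on CD. Leaving out 1 mouse gave Slc6a4 0.39 to 0.57 (TDD versus CD, SPF), -0.19 to 0.011 (ABX on CD) and -0.49 to -0.39 (ABX on TDD), and Tph1 0.37 to 0.58, -0.19 to 0.0059 and -0.48 to -0.26. The cause of these shifts was not tested. Precision is limited by 5 mice a group and, for Slc18a2, Htr3a and Htr4, by few counts.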
